A study of Mus musculus with 18 samples.

Results

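The genes of glycolysis were followed in cells sorted as satellite cells, the resident stem cells of skeletal muscle, from uninjured and injured muscle. Glycolysis splits glucose into pyruvate in the cytosol. Glucose enters the cell through a transporter, hexokinase and phosphofructokinase spend ATP to prime it, aldolase divides the 6-carbon sugar, and the lower enzymes from glyceraldehyde-3-phosphate dehydrogenase to enolase return ATP and NADH. Lactate dehydrogenase then turns pyruvate into lactate and restores NAD+. Quiescent satellite cells are known for low metabolic activity, and their activation is known to bring a rise in glycolysis. The members were 10 genes: the transporter Slc2a1, the hexokinases Hk1 and Hk2, the phosphofructokinase Pfkp, the aldolase Aldoa, Gapdh, the phosphoglycerate kinase Pgk1, the phosphoglycerate mutase Pgam1, the enolase Eno1 and the lactate dehydrogenase Ldha. They were found as all probe sets that the array annotation assigns to 1 of these symbols alone. That gave 19 probe sets of 8 genes among 45101 probe sets and 18193 genes. Eno1 had no probe set under that symbol. Gapdh had only the 3 probe sets that the manufacturer placed on the array as a control, at the 3′ end, the middle and the 5′ end of its transcript, and they were kept apart.

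Cells came from the tibialis anterior muscle of female mice aged 3 to 6 months and were sorted by flow cytometry for the surface protein syndecan-3. Wild type mice were C57Bl/6 x DBA2 hybrids and Sdc4-/- mice, which lack the heparan sulfate proteoglycan syndecan-4, were C57Bl/6, so that genotype and strain cannot be told apart. Muscle was either uninjured (0 h) or had been injected with 1.2% barium chloride 12 h or 48 h before harvest, which kills muscle fibres. Each of the 6 groups had 3 arrays, and 1 wild type uninjured array, replicate 3, was left out as the study left out 1 array of that group. That left 17 arrays, with 2 in the wild type uninjured group. RNA was amplified in repeated rounds of T7 transcription, a step known to lose 5′ sequence, and an amount equal to 5000 cells was put on each array. The labels do not say whether replicates came from separate mice, and the p-values measure only the spread between these arrays.

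The arrays differed in ways that touch the results. Signals over 5 on the log2 scale came from 2832 to 3982 probe sets in wild type cells at 12 h, 5123 to 5564 in wild type cells at 48 h and 7213 to 7620 in wild type uninjured cells, and 5076 to 7864 in the Sdc4-/- groups. The mean of the 18 hybridization control probe sets, transcripts added in fixed amount, ran the other way, at 13.54 to 14.30 in wild type cells at 12 h, 11.68 to 12.50 at 48 h and 7.86 to 8.94 at 0 h, against 8.74 to 12.33 in Sdc4-/- cells. Wild type 12 h replicate 2 lay below the other 2 arrays of its group by the main probe sets of Slc2a1, Pfkp, Aldoa, Pgk1, Pgam1 and Ldha. For Pfkp its value was 3.85 against 4.12 and 5.27. The same array lay above the other 2 by the Aldoa probe sets 1433604_x_at and 1447734_x_at and the Slc2a1 probe set 1426600_at. Of the Sdc4 probe sets, 1417654_at lay between 2.41 and 2.60 in all Sdc4-/- arrays and between 5.59 and 7.62 in wild type cells at 48 h, but 2.36 to 3.64 in wild type cells at 0 h and 12 h. The other, 1448793_a_at, lay between 3.39 and 6.53 in Sdc4-/- arrays, which overlapped wild type cells at 0 h (4.08 to 5.20) and 12 h (3.71 to 4.2) and lay below those at 48 h (6.88 to 8.11). The satellite cell markers Pax7 and Myf5 had means of 4.87 and 4.71 in wild type uninjured cells and of at most 3.61 in every other group, and Myod1 was at most 2.62 in all 6 groups. Other members of the 15-gene satellite cell list went otherwise: Met reached a mean of 7.01, Cxcr4 7.06 and Sdc3 6.79 in Sdc4-/- cells at 48 h, and the summed level of the list, as log2, was 8.59 to 8.61 at 0 h, 7.28 to 7.89 at 12 h and 8.87 to 9.63 at 48 h in wild type cells. Markers of monocytes and macrophages were high in most groups, as given beside the results.

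The promoters of these genes are well known for sites of the hypoxia-inducible factors, which bind a core that reads ACGTG. RefSeq promoters of the GRCm38.p6 build were searched over the 250 bases before each start site, on both strands, with the strands of the E-box CACGTG, which holds the core in each direction, counted once. The core stood in 16.6% of 32851 promoters and at 2 or more places in 1.95%. It was found before at least 1 start site of 6 of the 10 members, some of which have several. That count is by gene and the shares are by promoter, so they are not like measures. Ldha had 3 places before 1 of its 2 start sites, Pgk1 and Hk2 had 2 each, Slc2a1 and Pgam1 had 1, and Aldoa had 1 that lies before 2 of its 3 start sites. Hk1, Pfkp, Gapdh and Eno1 had none in these windows. Shown are 60-base stretches of the 6 genes that carry it, with the core or its reverse complement in capitals.
Ldha, chr7:46845744-46845803, plus strand: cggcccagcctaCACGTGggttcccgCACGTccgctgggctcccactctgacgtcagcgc
Pgam1, chr19:41911752-41911811, plus strand: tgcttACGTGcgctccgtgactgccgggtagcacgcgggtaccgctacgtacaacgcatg
Pgk1, chrX:106186945-106187004, plus strand: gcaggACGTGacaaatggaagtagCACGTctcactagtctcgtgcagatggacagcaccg
Aldoa, chr7:126799326-126799385, minus strand: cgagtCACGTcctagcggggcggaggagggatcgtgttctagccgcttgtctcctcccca
Slc2a1, chr4:119108685-119108744, plus strand: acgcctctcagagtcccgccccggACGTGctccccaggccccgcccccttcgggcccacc
Hk2, chr6:82774455-82774514, minus strand: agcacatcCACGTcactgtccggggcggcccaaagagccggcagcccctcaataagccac
The Ldha stretch ends at the base before the start site and carries an E-box and a second core, and the third place of Ldha, also an E-box, lay upstream of it. A match is a description of the sequence and not evidence of binding.

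The last enzymes of the pathway rose at 48 h. Ldha, which makes lactate from pyruvate, had log2 values of 7.45 and 7.14 in wild type uninjured cells, of 7.03, 5.92 and 8.03 at 12 h, and of 9.55, 9.15 and 9.01 at 48 h. Sdc4-/- cells had 7.75, 7.36 and 7.23 at 0 h, 7.44, 7.91 and 7.01 at 12 h, and 9.17, 9.25 and 8.91 at 48 h. In each genotype all 3 arrays at 48 h lay above every array at 0 h and 12 h. Of all probe sets 50.7% had the wild type arrays at 48 h above those at 0 h, and 7.57% above those at 12 h. In Sdc4-/- cells these shares were 18.6% and 14.1%. Ldha rose by 1.94 ± 0.46 log2 units (SE, 3.83-fold, limma adjusted p = 0.0162) from 0 h to 48 h in wild type cells and by 1.66 ± 0.41 (3.16-fold, adjusted p = 0.0383) in Sdc4-/- cells. From 12 h to 48 h it rose by 2.24 ± 0.41 (adjusted p = 0.00357) in wild type cells, a change that became -0.12 when the arrays were quantile normalized again, and by 1.65 ± 0.41 (adjusted p = 0.0329; 0.138 after that step) in Sdc4-/- cells. The 48 h change from uninjured cells differed between genotypes by 0.28 (wild type minus Sdc4-/-, 95% interval -1.06 to 1.61, adjusted p = 0.84). The wild type call at 48 h against 0 h was lost without wild type 0 h replicate 1 (adjusted p = 0.0681) or replicate 2 (adjusted p = 0.103). The Sdc4-/- call against 0 h was lost when any of 12 of the 17 arrays was left out (adjusted p = 0.0504 to 0.116): wild type 0 h replicates 1 and 2, 12 h replicate 1 and 48 h replicates 2 and 3, and every Sdc4-/- array except 12 h replicates 2 and 3. The Sdc4-/- call against 12 h was lost without Sdc4-/- 12 h replicate 1 or 3 or any Sdc4-/- array at 48 h (adjusted p = 0.0689 to 0.107).

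Pgam1, which moves the phosphate of 3-phosphoglycerate to form 2-phosphoglycerate, followed the same course. Its log2 values were 6.67 and 6.30 in wild type uninjured cells, 7.52, 4.45 and 6.92 at 12 h, and 8.69, 9.25 and 8.49 at 48 h. The Sdc4-/- values were 7.64, 6.77 and 6.90 at 0 h, 6.34, 6.79 and 6.68 at 12 h, and 9.12, 9.18 and 8.91 at 48 h. The arrays at 48 h lay above all others in each genotype, a separation whose shares over all probe sets are given with Ldha. Pgam1 rose by 2.32 ± 0.66 (4.99-fold, adjusted p = 0.038; 0.0684 with all 18 arrays) from 0 h to 48 h in wild type cells, and the change of 1.97 ± 0.59 in Sdc4-/- cells did not pass the test (3.92-fold, adjusted p = 0.0903). From 12 h it rose by 2.51 ± 0.59 (adjusted p = 0.0144) in wild type cells and by 2.47 ± 0.59 (adjusted p = 0.0267) in Sdc4-/- cells. Wild type and Sdc4-/- changes at 48 h were 0.35 apart (95% interval -1.57 to 2.27, adjusted p = 0.861). The wild type call against 0 h was lost without any array of wild type 0 h or 48 h, without Sdc4-/- 12 h replicate 2 and without any Sdc4-/- array at 48 h (adjusted p = 0.0503 to 0.18). The Sdc4-/- call against 12 h was lost without any of the 6 arrays compared (adjusted p = 0.0546 to 0.0946), and the change of Sdc4-/- cells against 0 h was called without wild type 12 h replicate 1 (adjusted p = 0.0464) or replicate 2 (adjusted p = 0.00178).

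**Figure D1:**
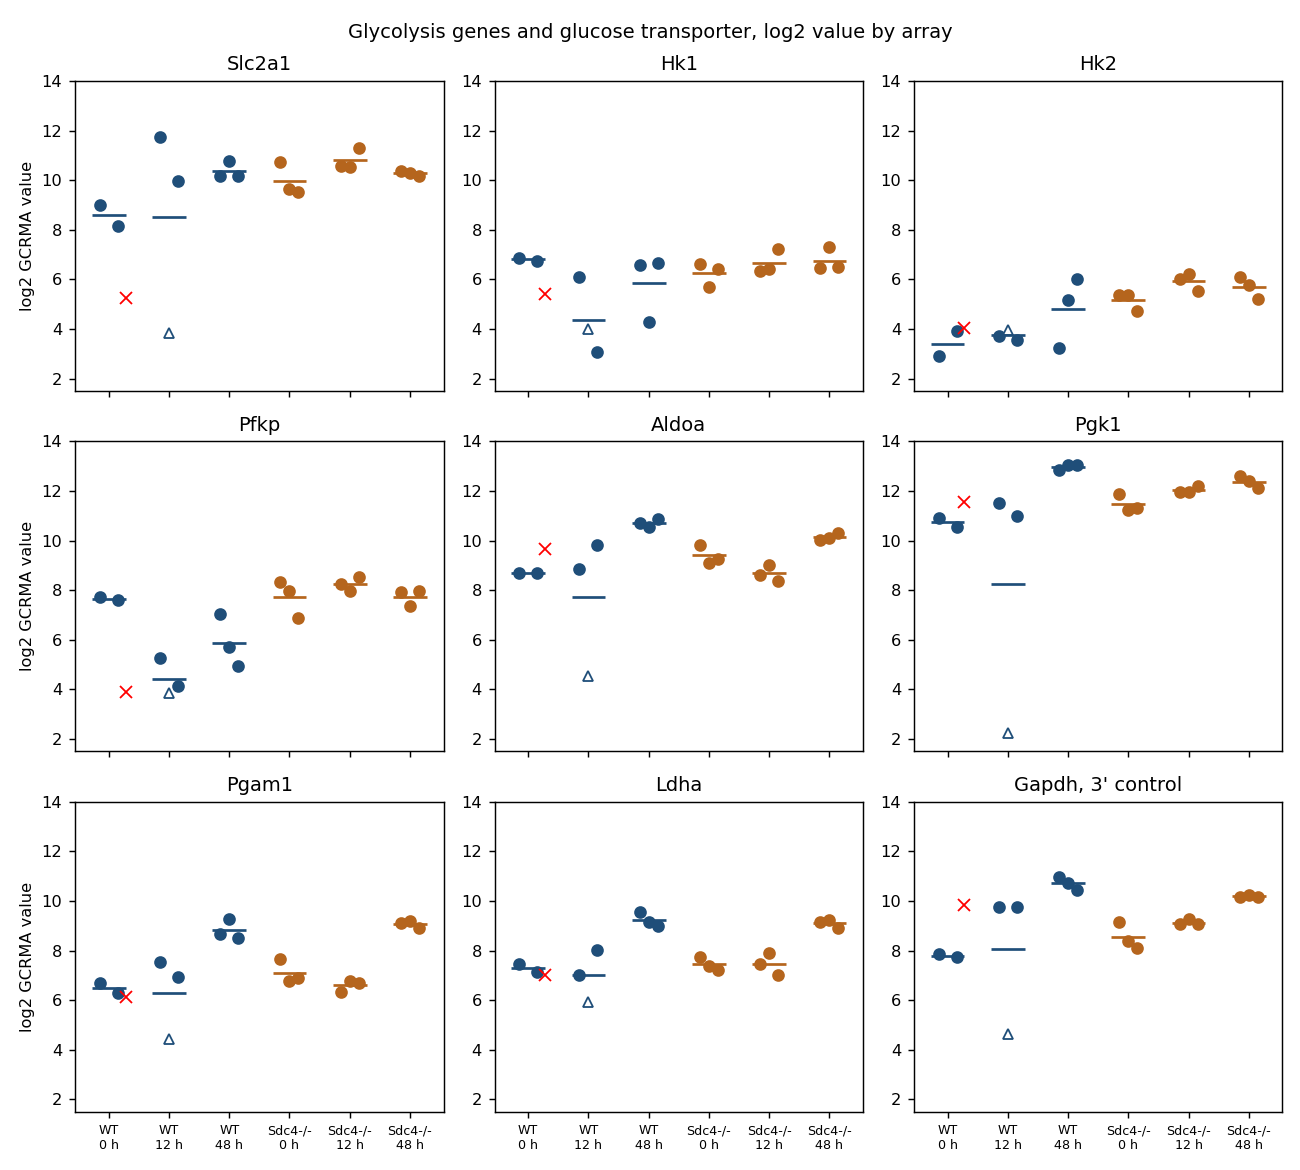
Log2 GCRMA value of each array for the probe set with the highest mean of each of the 8 measured genes and for the 3′ Gapdh control. Points are arrays (2 in wild type 0 h, 3 in each other group), horizontal lines are group means, the open triangle is wild type 12 h replicate 2 and the red cross is the wild type 0 h array left out. Ldha and Pgam1 sit highest at 48 h in each genotype, the Pfkp arrays at 12 h lie between 3.85 and 5.27 in wild type and between 7.98 and 8.55 in Sdc4-/- cells, and the triangle lies far below its group for Slc2a1, Aldoa and Pgk1.

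Aldoa and Pgk1, from the middle of the pathway, had their highest group means at 48 h in each genotype, and whether their main probe sets passed the test turned on the wild type 12 h arrays. Aldoa splits fructose 1,6-bisphosphate. Its probe set with the highest mean, 1416921_x_at, had log2 values of 8.71 and 8.68 in wild type uninjured cells, 8.84, 4.55 and 9.82 at 12 h, and 10.70, 10.56 and 10.87 at 48 h. Sdc4-/- arrays had 9.82, 9.11 and 9.27 at 0 h, 8.63, 9.02 and 8.39 at 12 h, and 10.04, 10.11 and 10.32 at 48 h. The change from 0 h to 48 h in wild type cells was 2.02 ± 1.06 (adjusted p = 0.237), and without wild type 12 h replicate 2, whose value of 4.55 widened the shared spread, the same 2.02 passed the test (adjusted p = 0.00112). Of the 4 other Aldoa probe sets, 1439375_x_at rose by 2.44 (adjusted p = 0.00797), 1434799_x_at by 2.66 (adjusted p = 0.0472) and 1433604_x_at by 1.44 (adjusted p = 0.0389) from 0 h to 48 h in wild type cells, and 1447734_x_at changed by 0.26 (adjusted p = 0.683). With all 18 arrays none of the 3 calls held (adjusted p = 0.141, 0.239 and 0.0968). From 12 h to 48 h in wild type cells 1416921_x_at changed by 2.97 (adjusted p = 0.0605) and passed without any 1 of the 3 arrays at 12 h (adjusted p = 0.0397, 0.0097 and 0.0108 without replicates 1, 2 and 3). Over the same time those 3 probe sets rose by 3.28, 4.55 and 2.10 (adjusted p = 0.000475, 0.00126 and 0.00265). In Sdc4-/- cells 3 of the 5 rose over that time: 1433604_x_at by 2.20 (adjusted p = 0.00393), 1439375_x_at by 1.71 (adjusted p = 0.0434; 0.0949 with all 18 arrays) and 1447734_x_at by 1.26 (adjusted p = 0.0388). All 5 are of the x type, whose probes can match other transcripts.

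Pgk1, which makes the first ATP of the pathway, had log2 values of 10.92 and 10.54 in wild type uninjured cells, 11.51, 2.22 and 10.99 at 12 h, and 12.86, 13.04 and 13.03 at 48 h by its probe set 1438640_x_at. Those of Sdc4-/- cells were 11.87, 11.22 and 11.32 at 0 h, 11.97, 11.98 and 12.19 at 12 h, and 12.62, 12.38 and 12.12 at 48 h. The value of 2.22 was that of wild type 12 h replicate 2, and the 2 other Pgk1 probe sets were also lowest there, at 4.15 and 4.46. The change from 0 h to 48 h in wild type cells was 2.25 ± 1.94 (adjusted p = 0.48) and, without that array, 2.25 with an adjusted p of 0.000135. Without it the Sdc4-/- change of 0.90 also passed (adjusted p = 0.0248), and the 48 h change was larger in wild type than in Sdc4-/- cells by 1.34 (adjusted p = 0.0288; 0.812 with all 17 arrays). From 12 h to 48 h in wild type cells the main probe set changed by 4.74 (adjusted p = 0.101), or by 6.37, 1.73 and 6.11 without replicate 1, 2 or 3 at 12 h (adjusted p = 0.0248, 0.000472 and 0.0494). Over that time the probe sets 1417864_at and 1439435_x_at rose by 4.35 and 3.60 (adjusted p = 0.015 and 0.0426), changes of 2.61 and 1.82 without the array. The wild type minus Sdc4-/- difference of 1438640_x_at at 12 h was -3.80 (adjusted p = 0.158), and -0.80 without wild type 12 h replicate 2 (adjusted p = 0.0333) or -5.44 without replicate 1 (adjusted p = 0.0434).

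Gapdh, which makes the first NADH of the pathway and often serves as a reference for quantitative PCR, was read only by its control probe sets. The 3′ probe set had log2 values of 7.85 and 7.73 in wild type uninjured cells, 9.77, 4.64 and 9.76 at 12 h, and 10.96, 10.74 and 10.43 at 48 h. The Sdc4-/- arrays had 9.16, 8.38 and 8.10 at 0 h, 9.05, 9.27 and 9.06 at 12 h, and 10.17, 10.24 and 10.16 at 48 h. By the 3′ and the middle probe set the arrays at 48 h were again the highest in each genotype (shares over all probe sets are given with Ldha). By the 5′ probe set this held in wild type cells only, as Sdc4-/- arrays at 0 h (6.51 to 8.40) overlapped those at 48 h (7.16 to 7.97). In wild type cells at 48 h the 5′ probe set rose by 3.10 (adjusted p = 0.00318) and the middle one by 2.52 (adjusted p = 0.00412) from 0 h, while the 3′ one changed by 2.92 (adjusted p = 0.114; 5.42e-05 without wild type 12 h replicate 2). At 12 h the ends parted: the 5′ probe set fell by 2.11 (adjusted p = 0.0101; 0.112 with all 18 arrays), and the 3′ one changed by 0.26 (adjusted p = 0.868), or by 1.97 without replicate 2 (adjusted p = 0.000328). The 3′ signal exceeded the 5′ signal by 4.60 ± 2.89 log2 units (SD, n = 3) in wild type cells at 12 h, 2.23 ± 0.55 (n = 2) at 0 h and 2.04 ± 0.51 (n = 3) at 48 h, and by 1.36 ± 0.56, 3.23 ± 0.59 and 2.72 ± 0.39 (n = 3 each) in Sdc4-/- cells at 0 h, 12 h and 48 h. The 3 wild type gaps at 12 h were 5.91, 1.28 and 6.60, the low one being that of replicate 2, and the gap of the array left out was 6.36. This gap is a sign of how much 5′ sequence was kept, and its part in the changes of the other members was not tested.

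The priming enzymes differed between genotypes at 12 h. Pfkp, the platelet-type phosphofructokinase that commits sugar to glycolysis, had log2 values of 7.73 and 7.60 in wild type uninjured cells, 5.27, 3.85 and 4.12 at 12 h, and 7.02, 5.71 and 4.93 at 48 h. Its values in Sdc4-/- cells were 8.35, 7.96 and 6.89 at 0 h, 8.25, 7.98 and 8.55 at 12 h, and 7.93, 7.35 and 7.95 at 48 h. The 12 h arrays lay below the uninjured ones in wild type cells, as for 22.0% of all probe sets. In Sdc4-/- cells the uninjured arrays overlapped those at 12 h and those at 48 h. Pfkp fell by 3.25 ± 0.58 at 12 h in wild type cells (9.52-fold, adjusted p = 0.00115), and the Sdc4-/- change was 0.53 ± 0.52 (adjusted p = 0.615). The difference between the 2 changes was -3.78 ± 0.78 (95% interval -5.48 to -2.08, adjusted p = 0.00952), and at 12 h wild type cells were lower than Sdc4-/- cells by 3.85 ± 0.52 (adjusted p = 0.000418). Pfkp kept these calls when any 1 of the 17 arrays was left out, and lost all 3 with the mean hybridization control as a covariate (adjusted p = 0.522, 0.45 and 0.115 for the 12 h change, its difference and the 12 h level). Averaged over its 3 probe sets the values were -0.73 (adjusted p = 0.0252), -1.0 (adjusted p = 0.0538) and -0.94 (adjusted p = 0.00706). The array that had been left out had a Pfkp value of 3.90, and with it in the fit the 12 h change was -2.00 (adjusted p = 0.11) and the difference between the changes -2.52 (adjusted p = 0.325). At 48 h the wild type change from 0 h was -1.78 ± 0.58 (adjusted p = 0.0669), and it passed without wild type 12 h replicate 1 (adjusted p = 0.0484) or 48 h replicate 1 (adjusted p = 0.0146). The 2 other Pfkp probe sets had values of 2.35 to 4.86, near the floor of the arrays, and 1437759_at rose at 12 h in wild type cells by 1.32 (adjusted p = 0.014), opposite to 1416069_at.

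Hk1 and Hk2 phosphorylate glucose on entry, Hk2 being the form that many proliferating cells raise. Hk1 had log2 values of 6.85 and 6.76 in wild type uninjured cells, 6.08, 3.99 and 3.08 at 12 h and 6.58, 4.28 and 6.66 at 48 h, and between 5.68 and 7.31 in the 9 Sdc4-/- arrays. It fell by 2.42 ± 0.82 at 12 h in wild type cells (adjusted p = 0.0356), a call lost with all 18 arrays (adjusted p = 0.0791) and without wild type 0 h replicate 1 or 2 or 12 h replicate 2 or 3 (adjusted p = 0.0856 to 0.135). At 12 h Hk1 was lower in wild type than in Sdc4-/- cells by 2.29 ± 0.73 (adjusted p = 0.0496), and this call was lost for 15 of the 17 arrays left out, all but wild type 12 h replicate 1 and 48 h replicate 2 (adjusted p = 0.0529 to 0.161). The difference in the 12 h change was -2.85 (adjusted p = 0.121; 0.0181 without wild type 12 h replicate 1). The other Hk1 probe set lay between 2.58 and 3.28 throughout. Hk2 had log2 values of 2.90 and 3.92 in wild type uninjured cells, 3.73, 3.95 and 3.56 at 12 h, and 3.23, 5.16 and 6.02 at 48 h. Its Sdc4-/- values were 5.37, 5.36 and 4.73 at 0 h, 6.02, 6.24 and 5.53 at 12 h, and 6.08, 5.77 and 5.21 at 48 h. The wild type arrays lay below the Sdc4-/- ones at 0 h and at 12 h and overlapped them at 48 h. Of all probe sets 25.7% had wild type arrays below Sdc4-/- ones at 0 h and 7.74% at 12 h. Hk2 was lower in wild type cells by 2.18 ± 0.56 at 12 h (adjusted p = 0.0178), a call lost without Sdc4-/- 12 h replicate 1 (adjusted p = 0.0539) or replicate 2 (adjusted p = 0.0666), and by 1.74 ± 0.62 at 0 h, which did not pass (adjusted p = 0.196; 0.0284 without wild type 48 h replicate 1). The difference in the 12 h change was -0.44 (95% interval -2.25 to 1.38, adjusted p = 0.76). The 48 h change in wild type cells was 1.40 (adjusted p = 0.168), or 2.18 without wild type 48 h replicate 1 (adjusted p = 0.00692).

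Slc2a1, which encodes the facilitative transporter GLUT1, had 3 probe sets that differed in what they gave at 12 h. The probe set with the highest mean, 1434773_a_at, had log2 values of 9.01 and 8.17 in wild type uninjured cells, 11.74, 3.83 and 9.98 at 12 h, and 10.16, 10.78 and 10.18 at 48 h. The same probe set had, in Sdc4-/- cells, 10.73, 9.63 and 9.51 at 0 h, 10.57, 10.54 and 11.30 at 12 h, and 10.37, 10.31 and 10.16 at 48 h. The 12 h change in wild type cells was -0.08 ± 1.58 (adjusted p = 0.974), and 2.27 without replicate 2 (adjusted p = 0.01), so that the sign turned with 1 array. The probe set 1426599_a_at, with values of 7.26 and 6.62 at 0 h and 10.82, 7.71 and 8.68 at 12 h in wild type cells, rose by 2.13 ± 0.68 (adjusted p = 0.0272) with all arrays and by 2.81 without replicate 2 (adjusted p = 0.00449). In Sdc4-/- cells its 12 h change was 0.76 (adjusted p = 0.521), and the difference between the changes was 1.37 (95% interval -0.61 to 3.35, adjusted p = 0.349). The third, 1426600_at, had values of 2.57 to 4.95 and was lower in wild type than in Sdc4-/- cells at 48 h by 1.59 (adjusted p = 0.0207). The change of 1434773_a_at from 0 h to 48 h in wild type cells was 1.78 (adjusted p = 0.493; 0.0387 without wild type 12 h replicate 2).

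**Figure D2:**
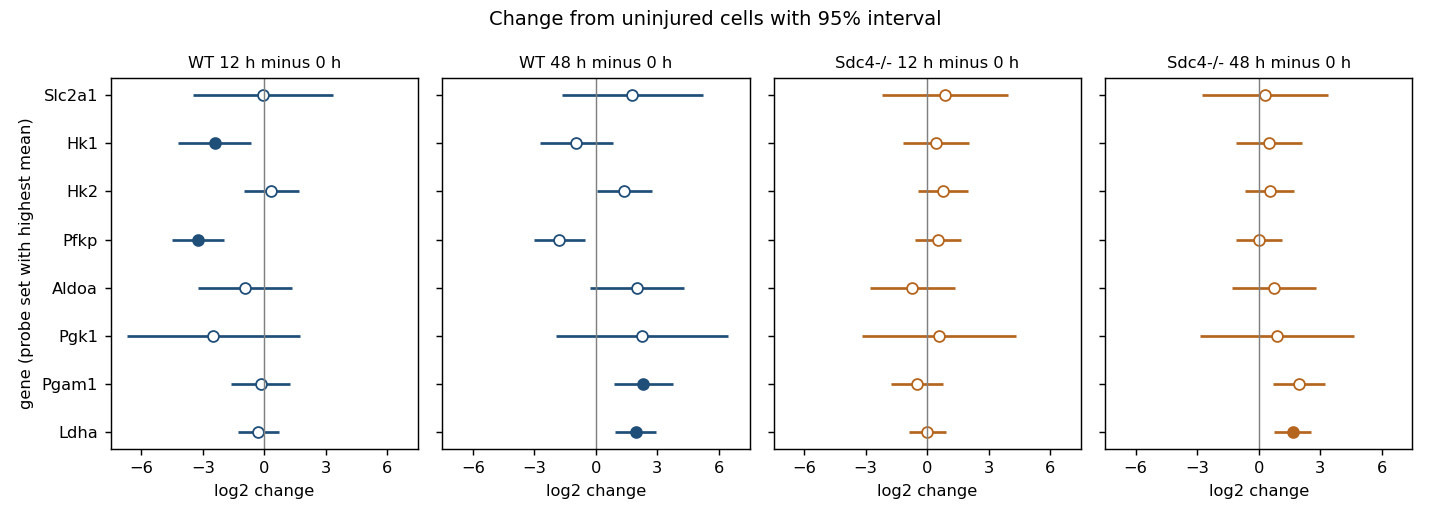
Log2 change from uninjured cells at 12 h and 48 h in each genotype, for the probe set with the highest mean of each gene. Points are changes from the fit of 17 arrays, lines are 95% intervals, and filled points have an adjusted p under 0.05. Hk1 and Pfkp are filled below 0 at 12 h in wild type cells, Pgam1 and Ldha above 0 at 48 h in wild type cells, and Ldha above 0 at 48 h in Sdc4-/- cells (Ldha at 12 h in wild type cells, -0.30 here, was 1.94 after a further quantile normalization).

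Counted together, with each gene read by its probe set with the highest mean, 2 of 8 members fell and none rose at 12 h in wild type cells. Of all probe sets 14.2% fell and 23.3% rose there. Of the 6278 genes whose mean over the arrays reached 4, which include all 8 members, 44.6% fell and 3.35% rose, with a median change of -1.56, and the members' median change was -0.63. At 48 h against 0 h 2 of 8 rose in wild type cells, against 5.35% of all probe sets and 5.18% of those genes, and the members' median change was 1.86 against -0.24. Against 12 h 2 of 8 rose, against 5.74% of all probe sets and 26.3% of those genes. The median change of the members was 2.05 and that of those genes 0.81. Without wild type 12 h replicate 2 the members' median changes were 0.38 at 12 h and 1.32 from 12 h to 48 h. In Sdc4-/- cells none of the 8 was called at 12 h by limma, none had an unadjusted p under 0.05 and none was called by an analysis of variance without moderation, and 6.41% of all probe sets were called in either direction. At 48 h 1 of 8 rose against 0 h, where 2.18% of all probe sets rose, and 2 of 8 against 12 h, where 5.28% rose. Of the 6278 genes 5.16% and 17.8% rose there, and the members' median changes were 0.65 and 0.20 against 0.22 and 0.86. With the mean hybridization control as a covariate every call of a member by its main probe set was lost.

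Between genotypes no member was called in uninjured cells, where 3.8% of all probe sets were (1 member, Hk2, had an unadjusted p under 0.05, and the analysis of variance called none). At 12 h 3 of 8 were lower in wild type cells, against 5.47% of all probe sets and 24.1% of those 6278 genes. At 48 h none of 8 was called by limma or by the unmoderated analysis of variance, with 5.07% of all probe sets called in either direction and Pfkp at an unadjusted p of 0.00375. The 12 h change was lower in wild type cells for 1 of 8, Pfkp, against 4.37% of all probe sets and 12.9% of the 6278 genes. The 48 h change differed for none of 8, against 4.08% of all probe sets in either direction. Pfkp had an unadjusted p of 0.0405 there, and the unmoderated analysis of variance called none. Over all 19 probe sets 7 rose and 1 fell from 12 h to 48 h in wild type cells, 5 rose in Sdc4-/- cells, and 5 rose from 0 h to 48 h in wild type cells against 1 in Sdc4-/- cells. The shares of all probe sets that rose were, in that order, 5.74%, 5.28%, 5.35% and 2.18%. From 12 h to 48 h 1.18% of the 6278 genes fell in wild type cells. The 19 are not separate members, since 5 read Aldoa and 3 each read Slc2a1, Pfkp and Pgk1.

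**Figure D3:**
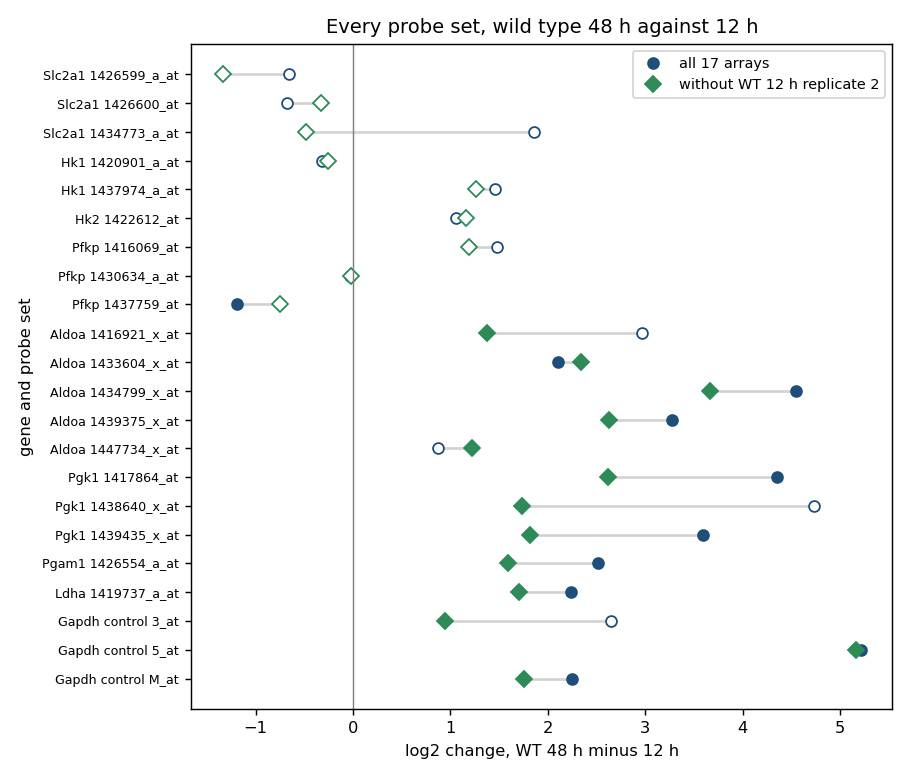
Log2 change from 12 h to 48 h in wild type cells for each of the 19 probe sets and the 3 Gapdh controls, with all 17 arrays (circles) and without wild type 12 h replicate 2 (diamonds). Filled symbols have an adjusted p under 0.05. The Aldoa, Pgk1, Pgam1 and Ldha probe sets stay above 0 in both, the Pgk1 probe set 1438640_x_at moves from 4.74 to 1.73, and the Slc2a1 probe set 1434773_a_at turns from 1.85 to -0.49 (after a further quantile normalization Ldha lies at -0.12).

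The members did not vary as 1 block. Over the 17 arrays Pearson's r between pairs of the 8 genes ran from 0.11 to 0.93 with a median of 0.40 over 28 pairs, and from -0.41 to 0.91 with a median of 0.20 without wild type 12 h replicate 2. These values are descriptions over arrays that share groups. Pgam1 and Ldha (r = 0.93), Aldoa and Pgam1 (0.87) and Aldoa and Ldha (0.85) were at 0.90, 0.86 and 0.91 without that array, and Slc2a1 and Pgk1 fell from 0.92 to 0.55. The genes outside the lists whose values were most like the members' mean profile over 17 arrays, among 5818 genes, were Cdkn1a, a cell cycle inhibitor (r = 0.98), Slc3a2, a subunit of amino acid transporters (0.97), Cfl1, an actin-severing protein (0.96), Eif4a1, an RNA helicase of translation initiation (0.96), and Rab2a, a GTPase of vesicle transport (0.95). Without wild type 12 h replicate 2 the values were 0.91, 0.88, 0.87, 0.81 and 0.79.

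Markers of other cells moved over the same time points. Of 19 measured monocyte and macrophage markers 16 rose from 12 h to 48 h in wild type cells (median change 5.62), 4 rose from 0 h to 48 h, and 5 rose from 12 h to 48 h in Sdc4-/- cells. Their summed level, as log2, was 12.64 to 15.22 in wild type cells at 0 h, 9.02 to 12.80 at 12 h and 15.93 to 16.02 at 48 h, and 16.33 to 16.60, at most 15.49 and 15.73 to 16.15 in Sdc4-/- cells at 0 h, 12 h and 48 h. The defining markers Csf1r and Adgre1 had means of 2.95 and 2.84 in wild type cells at 12 h and of 12.69 and 8.49 at 48 h. At 12 h in these cells 5 of the 19 had a mean under 3, while Lyz1 was at 10.29 and Laptm5 at 7.06. Cx3cr1 went from 4.17 at 12 h to 3.99 at 48 h. From 12 h to 48 h 26.3% of the 6278 genes rose in wild type and 17.8% in Sdc4-/- cells. From 0 h to 48 h 5.18% rose in wild type cells. At 12 h 11 of the 19 were lower in wild type than in Sdc4-/- cells, the comparison in which Pfkp, Hk1 and Hk2 were lower. Of the 6278 genes 24.1% were lower there. From 0 h to 12 h in wild type cells, where Pfkp and Hk1 fell, 7 of 15 endothelial, 7 of 13 fibroblast, 7 of 11 smooth muscle and pericyte and 7 of the 19 monocyte and macrophage markers fell (1, 1, 2 and 10 with all 18 arrays). Of the 6278 genes 44.6% fell there, and of all probe sets 14.2%. Of 12 neutrophil markers 3 fell from 12 h to 48 h in Sdc4-/- cells, where 1.08% of the 6278 genes fell. The summed neutrophil level was 12.27 to 14.71 at 12 h and 8.08 to 8.94 at 48 h there. Endothelial markers fell for 10 of 15 and fibroblast markers for 8 of 13 from 0 h to 48 h in wild type cells (none of either with all 18 arrays), and for 1 of 15 and 2 of 13 in Sdc4-/- cells. Of the 6278 genes 14.2% fell over that time in wild type cells and 3.68% in Sdc4-/- cells. The summed endothelial level was 13.18 to 14.59 at 0 h, 12.25 to 13.09 at 12 h and 9.66 to 11.61 at 48 h in wild type cells. The part of these markers in the changes of the glycolysis genes was not tested, and in sorted bulk cells fewer cells of a type and less RNA per cell cannot be told apart.

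The other enzymes of glycolysis were read from a list of further isozymes, of which 15 were measured. At 48 h against 12 h 3 of them rose and none fell in wild type cells, and 2 rose in Sdc4-/- cells (1 with all 18 arrays). Among all probe sets 5.74% rose in wild type and 5.28% in Sdc4-/- cells, and among the 6278 genes 26.3% and 17.8%. The median change of the list, of which 7 had a mean of at least 4, was 0.04 in wild type cells and 0.03 in Sdc4-/- cells, against -0.08 and -0.04 over all probe sets. Tpi1, which interconverts the 3-carbon sugars, had means of 7.33, 5.05 and 9.76 at 0 h, 12 h and 48 h in wild type cells and 7.86, 5.63 and 9.26 in Sdc4-/- cells. It rose by 4.71 (adjusted p = 0.000358) and 3.64 (adjusted p = 0.00461) from 12 h to 48 h, and its fall of 2.29 at 12 h in wild type cells (adjusted p = 0.0223) was lost without wild type 12 h replicate 2 (adjusted p = 0.0675) and with all 18 arrays (adjusted p = 0.141). Hk3, the hexokinase of blood cells, had means of 4.66, 2.51 and 7.35 in wild type cells and 6.79, 6.91 and 8.22 in Sdc4-/- cells. Hk3 rose by 4.85 (adjusted p = 0.00067) from 12 h to 48 h in wild type cells and was lower there than in Sdc4-/- cells at 12 h by 4.40 (adjusted p = 0.00107). Pkm, the pyruvate kinase of muscle and proliferating cells, had means of 5.09, 4.47 and 6.41 in wild type cells and 4.98, 6.05 and 7.47 in Sdc4-/- cells. Pkm rose by 1.94 (adjusted p = 0.0121) from 12 h to 48 h in wild type cells and by 2.48 (adjusted p = 0.00611) from 0 h to 48 h in Sdc4-/- cells. Ldhb, the lactate dehydrogenase form of oxidative tissue, fell by 0.75 (adjusted p = 0.0103; 0.28 with all 18 arrays) from 0 h to 48 h in wild type cells, where Ldha rose. Pfkl and Bpgm were called in none of the 11 comparisons.

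Of 14 other glucose and lactate transporters 4 rose and 2 fell at 12 h in wild type cells (3 and none with all 18 arrays), with a median change of 0.22, and none was called in the 3 Sdc4-/- time comparisons. Of all probe sets 23.3% rose and 14.2% fell at 12 h in wild type cells. Slc2a3, the GLUT3 transporter, had means of 5.67, 2.85 and 4.24 in wild type cells and 7.27, 5.68 and 4.54 in Sdc4-/- cells at 0 h, 12 h and 48 h, and fell by 2.82 at 12 h in wild type cells (adjusted p = 0.0322; 0.0545 without wild type 12 h replicate 2 and 0.152 with all 18 arrays). Bsg, the chaperone of the lactate transporters, fell by 1.43 (adjusted p = 0.0159; 0.18 with all 18 arrays). Slc16a8, a lactate transporter known from the retinal pigment epithelium, rose by 4.72 at 12 h in wild type cells (adjusted p = 9.59e-06), from a mean of 2.40 to 7.12, and Slc16a7 was not called.

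Pyruvate leaves glycolysis for the mitochondria through pyruvate dehydrogenase. Of 17 genes that set fructose 2,6-bisphosphate or the fate of pyruvate, 7 fell and 2 rose at 12 h in wild type cells (none fell and 2 rose with all 18 arrays), and 4 rose in wild type cells and 7 in Sdc4-/- cells from 12 h to 48 h (4 in each with all 18 arrays). At 12 h in wild type cells 44.6% of the 6278 genes fell and 3.35% rose, and 14.2% and 23.3% of all probe sets. From 12 h to 48 h 26.3% of the 6278 genes rose in wild type cells and 17.8% in Sdc4-/- cells. For all probe sets these shares were 5.74% and 5.28%. Pdk1, the kinase that shuts pyruvate dehydrogenase, had means of 6.86, 3.29 and 9.57 in wild type cells and 6.38, 3.94 and 7.57 in Sdc4-/- cells. It rose by 6.27 (adjusted p = 3.47e-05) and 3.63 (adjusted p = 0.00463) from 12 h to 48 h. The pyruvate dehydrogenase subunits Pdha1, Pdhb and Dlat rose over the same time by 3.20, 4.10 and 2.25 in wild type cells (adjusted p = 0.000451, 0.000209 and 0.00145), after falls at 12 h of 3.01, 3.99 and 1.72 (adjusted p = 0.000601, 0.00024 and 0.00571; 0.0575, 0.0702 and 0.16 with all 18 arrays). Of 17 enzymes of the tricarboxylic acid cycle 10 fell at 12 h (6 with all 18 arrays) and 10 rose from 12 h to 48 h in wild type cells (8 with all 18 arrays), and 4 fell and 6 rose in Sdc4-/- cells. Of the 6278 genes 44.6% fell and 26.3% rose over those times in wild type cells, and 14.8% and 17.8% in Sdc4-/- cells. The median change of the cycle's genes, 15 of them with a mean of at least 4, in wild type cells was -2.54 at 12 h, where that of the 6278 genes was -1.56, and 2.75 from 12 h to 48 h, where theirs was 0.81. Cs, the citrate synthase, fell by 4.10 at 12 h (adjusted p = 0.0248; 0.0703 without wild type 12 h replicate 2), and Mdh2, the mitochondrial malate dehydrogenase, by 5.38 (adjusted p = 0.0336; 0.107 without it). Idh3g and Mdh1 were not called.

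**Figure D4:**
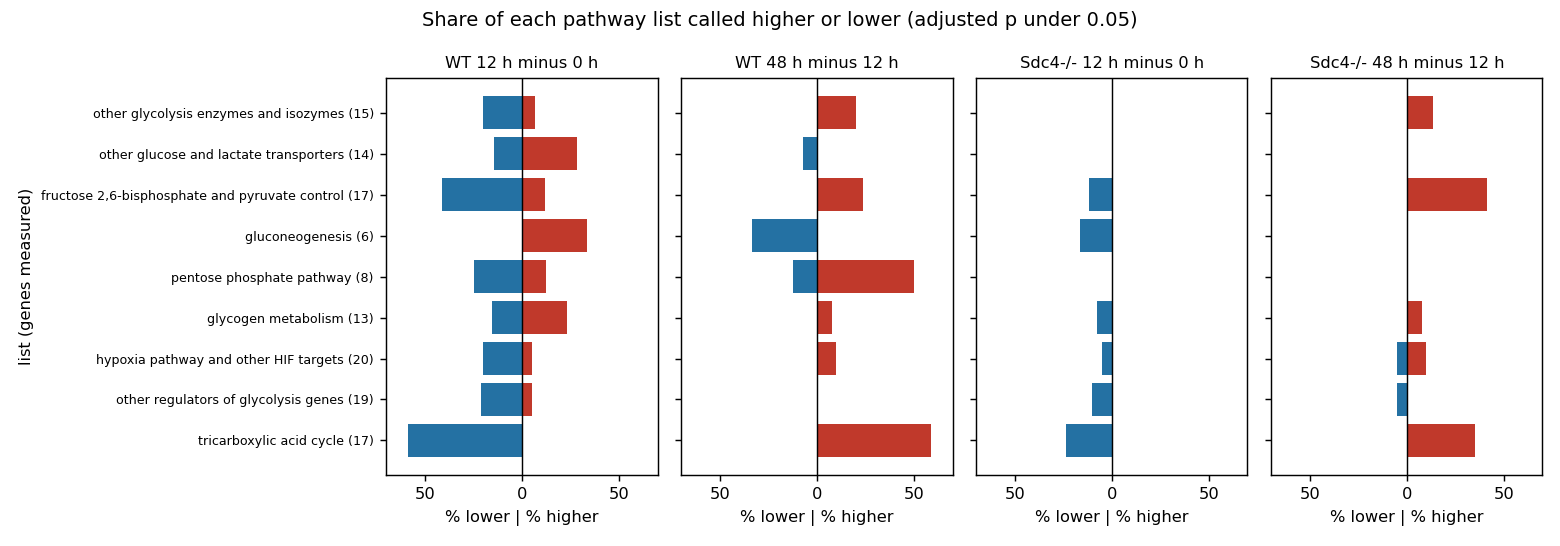
Share of the measured genes of each list called higher (red, right of 0) or lower (blue, left of 0) at an adjusted p under 0.05, with the number measured in brackets. Panels give 12 h against 0 h and 48 h against 12 h in each genotype. The tricarboxylic acid cycle list has 10 of 17 genes lower at 12 h and 10 of 17 higher from 12 h to 48 h in wild type cells.

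The branches around glycolysis were read in 3 lists. In the pentose phosphate pathway, which makes NADPH and ribose, 4 of 8 rose and 1 fell from 12 h to 48 h in wild type cells (1 rose and none fell with all 18 arrays) and none was called in Sdc4-/- cells (2 rose there without wild type 12 h replicate 2). Over that time 26.3% of the 6278 genes rose and 1.18% fell in wild type cells, and 17.8% and 1.08% in Sdc4-/- cells. The list had 7 genes with a mean of at least 4. Taldo1, a transaldolase, fell by 2.26 at 12 h (adjusted p = 0.00167) and rose by 3.29 from 12 h to 48 h (adjusted p = 0.000135). Tkt and Pgd rose by 3.81 and 4.37 (adjusted p = 0.0473 and 0.0398), and without replicate 2 their changes were 1.91 and 3.28 (adjusted p = 0.011 and 0.142). Rpia was not called. Of 13 glycogen genes 3 rose and 2 fell at 12 h in wild type cells, where 23.3% of all probe sets rose and 14.2% fell. Ugp2, which makes UDP-glucose, fell by 4.47 (adjusted p = 2.96e-05) and rose by 5.65 from 12 h to 48 h (adjusted p = 2.67e-06), with means of 8.61, 4.14 and 9.79 in wild type cells and 8.91, 8.30 and 10.22 in Sdc4-/- cells. Gyg, Pygl and Pgm2 were not called. Of 6 genes of gluconeogenesis 2 rose at 12 h in wild type cells, namely Pck1 by 2.61 (adjusted p = 0.000194; 0.0585 with all 18 arrays) and Fbp2 by 1.79 (adjusted p = 0.00374). Fbp1 had means of 2.32 to 2.59 in 5 groups and 5.11 in Sdc4-/- uninjured cells, from which it fell by 2.76 at 12 h (adjusted p = 0.00292), and Pck2 was not called.

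Regulators of the pathway were read in 2 lists. Of 20 genes of the hypoxia response, members excluded, 4 fell and 1 rose at 12 h in wild type cells (1 and 1 with all 18 arrays), and 2 rose from 12 h to 48 h in each genotype (1 in wild type cells with all 18 arrays). Of all probe sets 14.2% fell and 23.3% rose at 12 h in wild type cells, and of the 6278 genes 44.6% and 3.35%. From 12 h to 48 h 5.74% of all probe sets rose in wild type cells and 5.28% in Sdc4-/- cells. Hif1a, the oxygen-regulated subunit whose protein binds the core shown above, had means of 10.51, 7.13 and 10.91 in wild type cells and 8.47, 11.54 and 10.93 in Sdc4-/- cells. At 12 h it was lower in wild type than in Sdc4-/- cells by 4.40 (adjusted p = 0.0172), a difference of -2.65 without wild type 12 h replicate 2 (adjusted p = 0.00945). Adm, a secreted peptide that hypoxia raises, was the 1 gene of the list that fell from 12 h to 48 h in Sdc4-/- cells (by 3.30, adjusted p = 0.0258), where 2 others rose. Epas1 and Ndrg1 were not called. The part of hypoxia in the changes of the members was not tested. Of 19 other regulators 4 fell and 1 rose at 12 h in wild type cells (1 and 1 with all 18 arrays) and 2 fell at 48 h against 0 h in each genotype. Of the 6278 genes 14.2% fell at 48 h against 0 h in wild type cells and 3.68% in Sdc4-/- cells. Txnip, which restrains glucose uptake, had means of 9.77, 7.14 and 6.30 in wild type cells and 10.13, 9.09 and 6.57 in Sdc4-/- cells. It fell by 3.47 (adjusted p = 0.00389) and 3.55 (adjusted p = 0.0032) from 0 h to 48 h. Tfeb, Arrdc4 and Mtor were not called. The lists and the members were not independent of earlier results on these arrays, and their counts are descriptions.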

How the data were processed

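Cells sorted as satellite cells, in 6 genotype and time groups, were profiled on Affymetrix MOE430v2 arrays. The authors read the arrays in GCOS and normalized them by GCRMA, whose log2 values, as deposited by the authors, were used without further scaling. Versions are not given in the sources used here, and no detection calls came with the values. Of 45101 probe sets, 34958 have 1 gene symbol in the platform annotation, 932 several and 9211 none. All 6 groups were fitted together on 17 arrays by lmFit and eBayes of limma 3.58.1 under R 4.3.3 (two-sided, 11 residual and 1.2 prior degrees of freedom), 11 contrasts were taken, and p-values were adjusted by Benjamini-Hochberg over all probe sets and called under 0.05. WT 0h replicate 3 was taken to be the array the study removed. A gene was read by its probe set with the highest mean over the 17 arrays. Members and lists were chosen with earlier results of these data known. Named genes were all members and, from each list, the 4 genes with the highest mean (6 for glycolysis enzymes). The genes most like the members were the 5 with the highest Pearson's r with the members' mean centred profile, among genes outside the lists with a mean of at least 4 and an SD of at least 0.5. The script was tested on simulated data. Probe sets that Gapdh or Hk1 shares with other symbols were not used. The number of arrays limits the precision.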

Additional observations from a re-analysis of the deposited data

Results flagged for a closer look

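The effect of injury differed between genotypes, by a test of the difference itself, for 1 of 8 members. Over the pathway lists it differed for 13 of 129 measured genes at 12 h (9 lower in wild type cells) and for 4 at 48 h. Of the 6278 genes counted above, 14.5% differed at 12 h (12.9% lower) and 5.86% at 48 h. Of all probe sets 4.37% were lower at 12 h, and 4.08% differed at 48 h. Whether the lists differed more often than other genes was not tested. Values are given for the 9 list genes that are among the named genes of their lists. All values are the wild type change minus the Sdc4-/- change in log2 units, with the limma adjusted p. For Pfkp the 12 h difference was -3.78 (adjusted p = 0.00952). At 12 h the differences of list genes below 0 were -2.24 for Pdha1 (adjusted p = 0.0459), -3.81 for Pdhb (adjusted p = 0.00793), -2.19 for Taldo1 (adjusted p = 0.0296), -3.86 for Ugp2 (adjusted p = 0.00259) and -6.45 for Hif1a (adjusted p = 0.0282). Those above 0 were 3.98 for Slc16a8 (adjusted p = 0.00102), 2.62 for Fbp1 (adjusted p = 0.0268) and 2.09 for Pck1 (adjusted p = 0.0157). At 48 h the difference was -0.98 for Ldhb (adjusted p = 0.0262). With all 18 arrays only Slc16a8 of these 10 still passed (adjusted p = 0.00482), and the others had adjusted p-values of 0.0507 to 0.544. Without wild type 12 h replicate 2 the 9 genes other than Pdha1 (adjusted p = 0.0667) passed.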

How the results depend on the processing

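Over the 17 fits that each left out 1 array, the number of the 8 members called ranged from 1 to 2 for wild type 12 h against 0 h (2 with all 17 arrays), 0 to 5 for 48 h against 0 h (2) and 2 to 6 for 48 h against 12 h (2). In Sdc4-/- cells it ranged from 0 to 0 for 12 h (0), 0 to 3 for 48 h against 0 h (1) and 0 to 3 for 48 h against 12 h (2). Between genotypes it ranged from 0 to 1 at 0 h (0), 1 to 5 at 12 h (3) and 0 to 1 at 48 h (0), from 1 to 2 for the 12 h change (1) and from 0 to 1 for the 48 h change (0). Of 1496 single-gene results in these fits 1412 kept their side of the threshold (32 of them, none called, turned in sign), 55 lost a call, 28 gained one and 1, Slc2a1 at 12 h in wild type cells without wild type 12 h replicate 2, turned to a called value of 2.27 (adjusted p = 0.01), the highest of a range whose lowest was -1.69 (adjusted p = 0.359) without replicate 1 of that group.

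For wild type 12 h against 0 h the count was 0 with all 18 arrays, 0 with the mean hybridization control as covariate, and 1 with only the groups compared, at the threshold of the study (analysis of variance, unadjusted p of 0.01 or less and 2-fold or more) and when a gene's probe sets were averaged. For wild type 48 h against 0 h it was 1 with all 18 arrays and after quantile normalization, 4 with only the groups compared and 0 with the covariate. For wild type 48 h against 12 h it was 0 with only the groups compared, after quantile normalization and with the covariate, 5 when probe sets averaging under 4 were dropped and 4 with averaged probe sets. For Sdc4-/- 48 h against 0 h it was 2 with only the groups compared, at the study's threshold and with the filter, and 0 with the trend and robust options, without moderation and with the covariate. For Sdc4-/- 48 h against 12 h it was 1 with trend and robust and without moderation, and 0 after quantile normalization and with the covariate. Wild type against Sdc4-/- at 12 h gave 0 with the covariate. At 48 h it gave 1 at the study's threshold, after the shift to a common 75th percentile, with the filter and with averaged probe sets. The 12 h change gave 0 with all 18 arrays, with the covariate and with averaged probe sets, and the 48 h change gave 2 with only the groups compared. The covariate runs with group (13.54 to 14.30 in every wild type 12 h array), so what it removes cannot be told apart from time. Quantile normalization turned Ldha at 12 h in wild type cells to 1.94 (adjusted p = 0.000577), Ldha from 12 h to 48 h to -0.12 and the wild type minus Sdc4-/- difference of Ldha at 12 h to 1.31 (adjusted p = 0.00657). The cause was not tested. It shifted the median over all probe sets at 12 h in wild type cells by -0.11, and the 75th percentile shift by 0.21.

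Same-numbered replicates did not deviate together (mean r 7.57e-05 over 40 pairs of arrays, 2 of them over 0.1), and the numbers do not pair the samples. With the replicate number as a block the count became 1 for wild type 48 h against 0 h, 0 for Sdc4-/- 48 h against 0 h, 1 for Sdc4-/- 48 h against 12 h and 1 for wild type against Sdc4-/- at 48 h. Values near 2 to 3 are at the floor of the arrays and have no reliable order.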
